A study of Homo sapiens with 6 samples.

Results

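Short hairpins against METTL3 were expressed in LX2 cells, an established line of human hepatic stellate cells, and 5367 genes lay on the same side of the control with both hairpins. A gene was counted when its values in all 6 RNA-seq libraries were at least 20 and all 4 shMETTL3 values lay above, or all 4 below, both control values. Of 12654 genes in the deposited table, 12201 had 6 values of at least 20 and 453 did not. Among the 12201, 2853 were higher (23.4%) and 2514 lower (20.6%), 44.0% in all. The genes were chosen by these same scores, so every change against the control given here is a description with no test.

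The 3 groups held 2 libraries each: shLuc, whose hairpin targets firefly luciferase, and shMETTL3-1 and shMETTL3-2, whose hairpins both target METTL3. All 3 groups carried a pLKO.1 lentiviral vector. They had been exposed for 10 h, with polybrene at 1 µg/ml, to virus from HEK293T, a line of human embryonic kidney cells. Selection was with puromycin at 1 µg/ml, and serum was at 10% in all 3 groups. Infection, selection and serum were thus common to the controls. Whether libraries of 1 group came from different cultures is stated nowhere, so a p-value here measures only the spread between these libraries. The deposited values, called scores here, have nearly the same distribution in each library, around a median of 552 and up to 72566. They keep no sequencing depth, so no counting error can be given. Every change is a difference of mean log2(score + 1) against shLuc. The change stated for a gene is the smaller of the 2 hairpins' changes, called the smaller change. Both hairpins were read against the same shLuc libraries, so their changes are not independent of each other.

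METTL3 is the enzyme that, within a larger complex, places N6-methyladenosine (m6A), a methyl mark, on messenger RNA. Reader proteins that bind the mark are known to alter the splicing, decay and translation of the marked transcripts. Hepatic stellate cells store retinoids in the healthy liver. On injury they become contractile, matrix-producing myofibroblasts, the main source of scar collagen in fibrosis.

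METTL3 itself met the rule and was lower with both hairpins. The shLuc libraries scored 536 and 552, the shMETTL3-1 libraries 274 and 256, and the shMETTL3-2 libraries 148 and 132. The groups did not overlap, and the changes were -1.04 with shMETTL3-1 and -1.95 with shMETTL3-2. METTL3 lay lower with shMETTL3-2 than with shMETTL3-1 by 0.92 on the log2 scale (hairpin difference -0.92, limma, adjusted p = 0.00016). Of 9 genes listed as writers of the mark, 3 were higher and 2 lower, METTL3 itself and METTL16 (-0.12). RBM15B, which helps bring the METTL3 complex to RNA, had a smaller change of 0.53, and CBLL1, also called HAKAI, one of 0.24. Of 12 erasers and readers of the mark, 2 were higher and 1 lower. The reader IGF2BP2 scored 1890 and 1943 with shLuc and between 2628 and 2948 in the shMETTL3 libraries, a smaller change of 0.52. The reader YTHDF3 was lower, with a smaller change of -0.18.

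Most shared changes were small. The smaller change had a median of 0.35 among higher genes and -0.35 among lower genes. It reached at least 0.5 in 938 higher and 809 lower genes, at least 1 in 233 and 214, at least 2 in 23 and 23, and at least 3 in 6 and 7. The gap between shLuc and the nearest shMETTL3 value was wider than the widest replicate difference of that gene in 1798 higher genes (14.7% of the 12201) and 1547 lower genes (12.7%). Replicates that tie at high scores make this margin easier to pass. A further 2650 genes (21.7%) lay above both shLuc values with one hairpin and below both with the other.

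**Figure D1:**
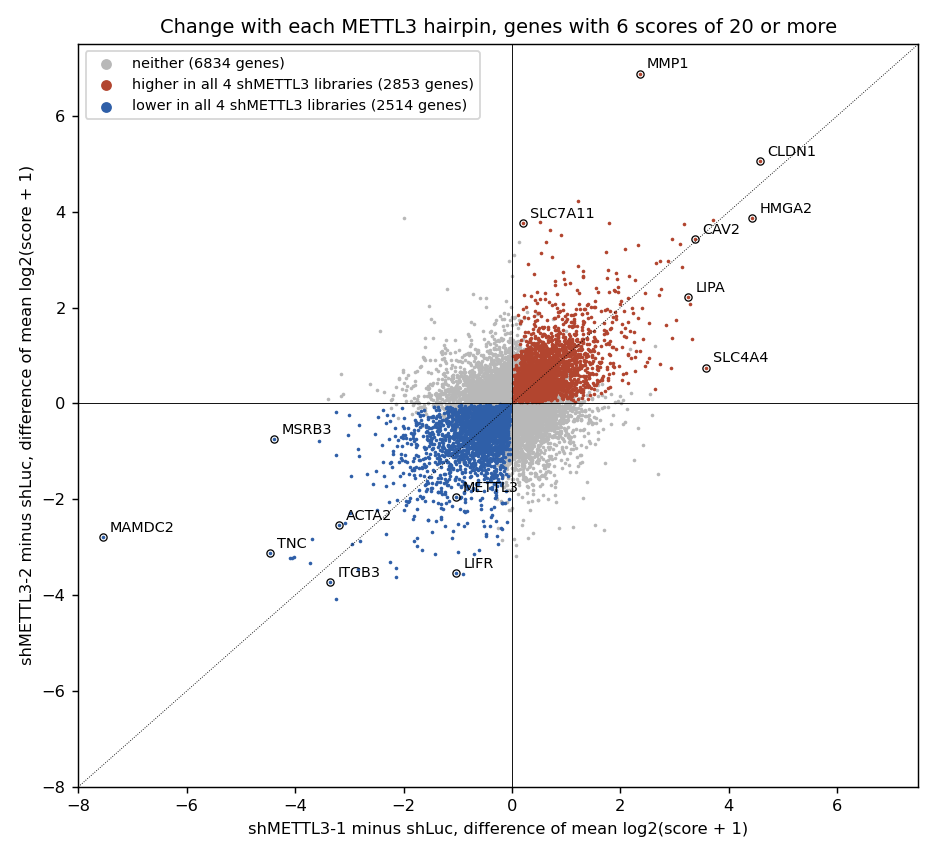
Each point is 1 of 12201 genes, with its change against shLuc with shMETTL3-1 (horizontal axis) and with shMETTL3-2 (vertical axis), both as differences of mean log2(score + 1); red and blue points are the 2853 higher and 2514 lower genes, and the dotted line marks equal changes. CLDN1, HMGA2 and CAV2 lie near the line at the upper right, ITGB3 and ACTA2 near it at the lower left, and MMP1, SLC7A11, SLC4A4, MAMDC2 and MSRB3 lie far from it.

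The gene with the largest shared increase was CLDN1, followed by HMGA2, LCP1 and CAV2. CLDN1, a claudin of tight junctions (ENSG00000163347, chromosome 3, 190023490 to 190040264 in hg19), scored 28 in both shLuc libraries, 654 and 737 in the shMETTL3-1 libraries, and 946 and 986 in the shMETTL3-2 libraries. The means were 28 ± 0, 696 ± 58.7 and 966 ± 28.3 (SD, n = 2), and the smaller change was 4.58. HMGA2, a chromatin architectural protein abundant in embryonic tissue (chromosome 12, 66217911 to 66360075), scored 62 and 65 with shLuc, 1425 and 1362 with the first hairpin, and 963 and 920 with the second. All 4 shMETTL3 libraries thus lay far above shLuc for both genes, with a smaller change of 3.87 for HMGA2. LCP1, an actin-bundling protein best known from blood cells, scored 22 and 29 against 326, 357, 340 and 410 (smaller change 3.70). CAV2, a caveolin of membrane caveolae, scored 374 and 310 against 3336, 3738, 3668 and 3644 (3.37), and its change was nearly the same with each hairpin, 3.37 and 3.42.

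SUMF1, the enzyme that activates lysosomal sulfatases, had a smaller change of 3.18. PTPRB, a receptor tyrosine phosphatase known from endothelium, followed at 3.09, and EMB, an adhesion glycoprotein, at 2.95. DOCK4, an activator of Rac, had 2.88 and CHIC1 2.85. ITGA2, the alpha subunit of a collagen-binding integrin, scored 42 and 39 with shLuc and 284, 268, 308 and 344 in the shMETTL3 libraries (2.74); it overlaps another listed gene. None of these overlapped shLuc in any library, as the rule requires. MCU, the pore of the mitochondrial calcium uniporter, had 2.66, OSCAR, a collagen receptor of the osteoclast lineage, 2.38, and MMP1, interstitial collagenase, 2.36. SPCS3, a subunit of the signal peptidase, scored 1176 and 1266 against 5698, 6496, 10768 and 13369 (2.32). TLR4, the receptor for bacterial lipopolysaccharide, had 2.30.

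The gene with the largest shared decrease was ITGB3, followed by PITPNM3, AIF1L and SYNPO2. ITGB3, the beta subunit of the vitronectin receptor (ENSG00000259207, chromosome 17, 45331212 to 45389182 in hg19), scored 3296 and 3465 in the shLuc libraries, 318 and 340 with the first hairpin, and 253 and 252 with the second. The means were 3380.5 ± 119.5, 329 ± 15.6 and 252.5 ± 0.707 (SD, n = 2), and the smaller change was -3.36. ITGA2 and ITGB3, each the most changed integrin in its direction, thus lay on opposite sides of shLuc. SYNPO2, an actin-bundling protein of muscle, scored 1979 and 2498 against 129, 128, 204 and 272 (-3.23). NPPB, the precursor of B-type natriuretic peptide, scored 14067 and 12583 against 822, 768, 1527 and 1314 (-3.23). AIF1L, an actin-binding protein, scored 893 and 1011 against 96, 102, 56 and 55 (-3.25).

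ACTG2, the gamma actin of smooth muscle, had -3.20 and LMOD1, a leiomodin that nucleates actin filaments, -2.82. ACTA2, the alpha smooth muscle actin used as the mark of activated stellate cells, scored 8266 and 9713 in the shLuc libraries and between 917 and 1694 in the others (-2.54). TNC, the matrix glycoprotein tenascin-C, stood at the maximum of 72566 in both shLuc libraries, so its smaller change of -3.13 is truncated. MAMDC2, a secreted proteoglycan, was lower with both hairpins but very unequally, with changes of -7.55 and -2.79. All 5 genes were lower in every shMETTL3 library, as the rule requires. SH3BGRL2 had -2.93, MAP6, which stabilises microtubules, -2.85, and NES, the intermediate filament nestin, -2.32. PITPNM3 (-3.32), AP001429.1 (-2.80) and DPY19L3 (-2.49) each overlap another listed gene. The strand setting of the counting is not given in the sources used here, so reads of such pairs may not be told apart.

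**Figure D2:**
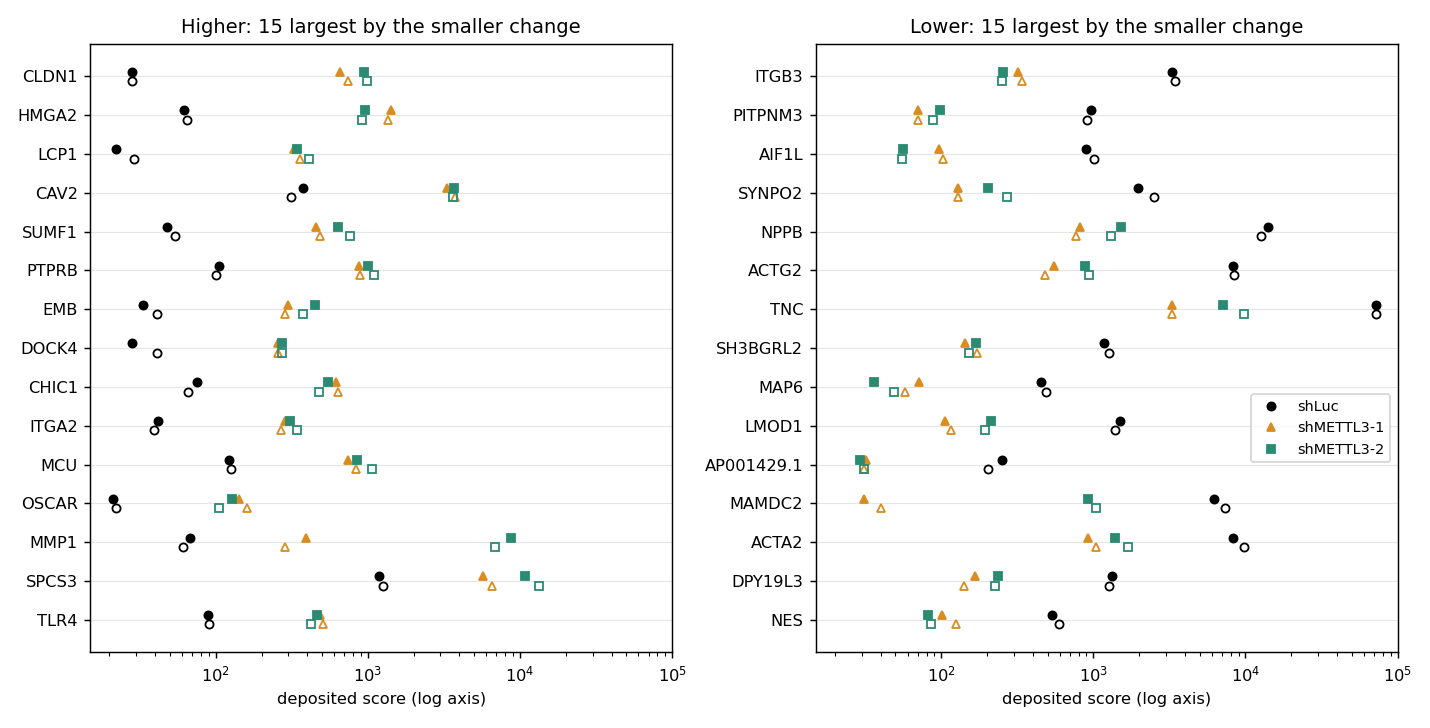
Deposited scores (log axis) of the 15 genes with the largest positive (left) and the 15 with the largest negative (right) smaller change; filled marks are replicate 1, open marks replicate 2, black circles shLuc, orange triangles shMETTL3-1 and green squares shMETTL3-2. In every row the 4 shMETTL3 marks lie on one side of both shLuc marks, as the rule requires, and the hairpins stand far apart for MMP1 and MAMDC2.

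The same genes were then read by function, in lists of genes with a known role. Counts for a list are to be read against the 23.4% higher and 20.6% lower among all genes, and a list's median is the median over its genes of the mean of both hairpins' changes, which was 0.00 over all genes. In the bulk RNA of a culture, fewer cells of a type and less RNA per cell cannot be told apart. Contractile genes, mitotic genes and kinesins had the highest shares of lower genes among lists of 20 or more, and lysosomal and autophagy genes the highest shares of higher genes.

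**Figure D3:**
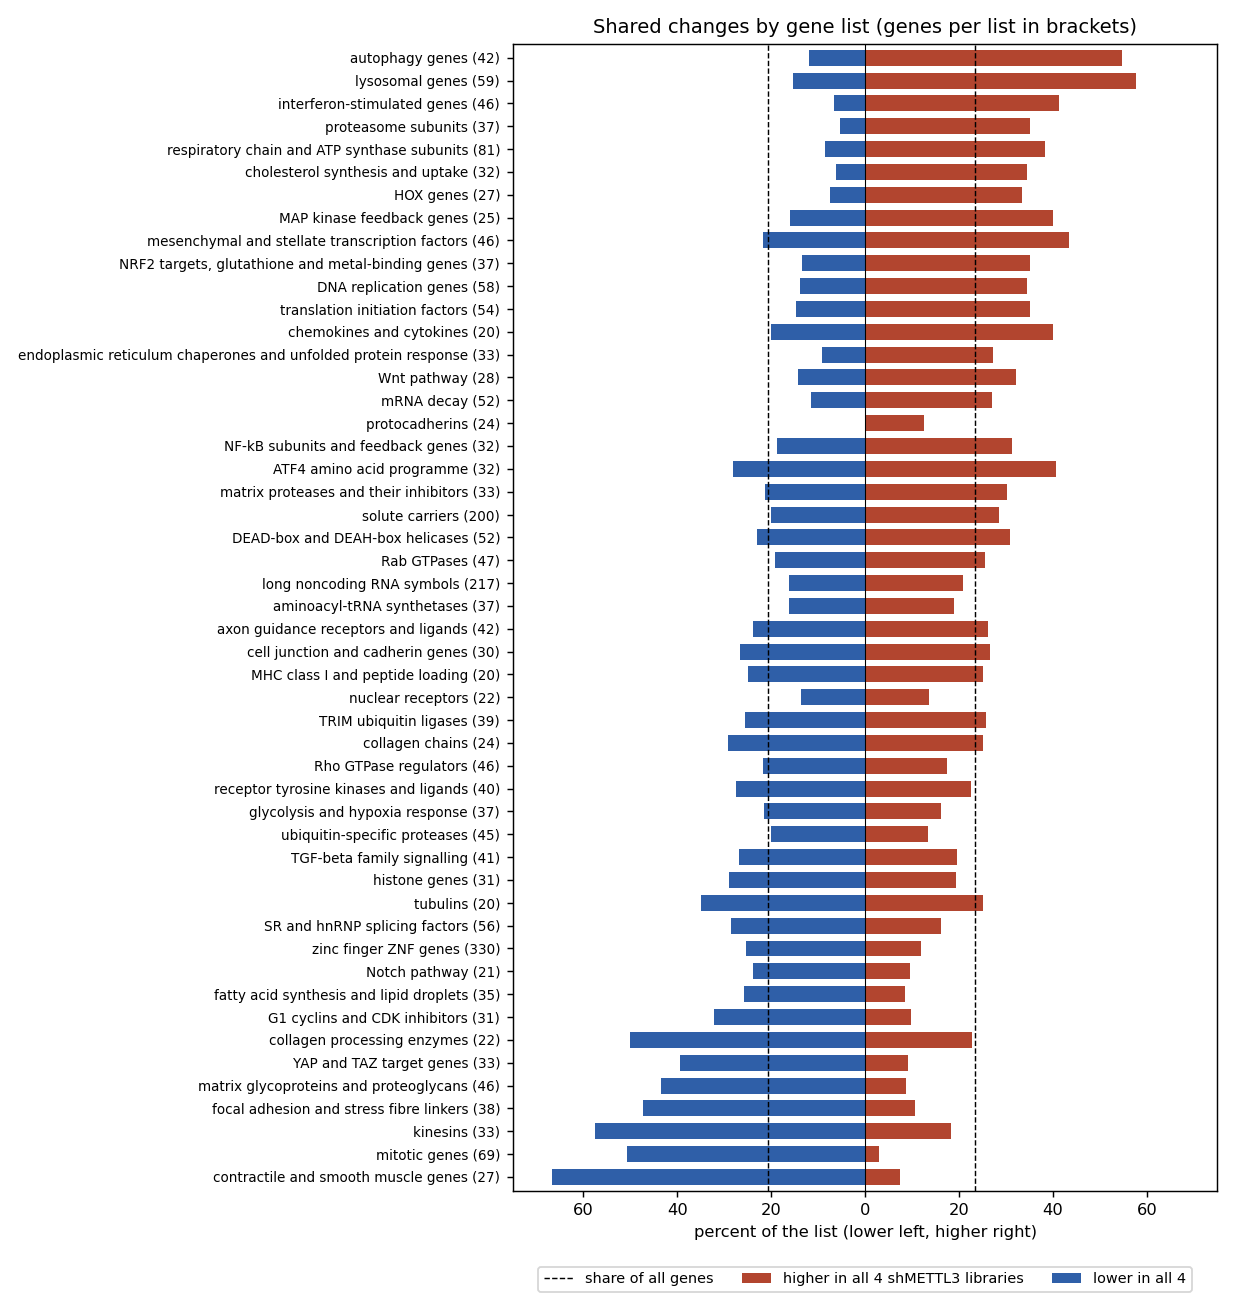
For each list with at least 20 genes at 6 scores of 20 or more (number in brackets), the percent of its genes that were lower (blue, to the left) and higher (red, to the right) in all 4 shMETTL3 libraries; dashed lines mark the 20.6% and 23.4% of all genes. Contractile genes stand at the bottom with 66.7% lower, and autophagy and lysosomal genes at the top with 54.8% and 57.6% higher.

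Contractile and smooth muscle genes were lower as a rule. Of 35 in the list, 27 had 6 scores of at least 20, and of these 18 were lower (66.7%) and 2 higher (7.41%); the list's median change was -0.57. In 17 of the 18 the gap exceeded the widest replicate difference, a margin that tied scores of abundant genes make easier to pass. Beside ACTG2, LMOD1, SYNPO2 and ACTA2, the lower genes included CNN1, calponin 1 of smooth muscle (smaller change -1.47), MYOCD, the coactivator of smooth muscle genes (-0.96), TAGLN, transgelin (-0.71), and MYL9, a myosin regulatory light chain (-0.65). The 2 higher genes were CNN2, a calponin of non-muscle cells, at 0.83, and TPM1, a tropomyosin, at 0.16. ACTG2 shows the size of the difference: it scored 8286 and 8429 with shLuc, 548 and 484 with the first hairpin, and 885 and 938 with the second. The names of CNN1, MYOCD, TAGLN and MYL9 were picked after their values were seen, as were all genes below that are given with a smaller change only and are not among the 3 furthest from 0 in their list.

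Serum response factor is known to act with MYOCD on the CArG box of contractile genes, so the 250 bases before the start of each gene were searched for it on both strands (RefSeq sequences, GRCh38.p14; 9742 of the 12201 genes matched). A box was found in 0.975% of these promoters and in 3 of 15 lower contractile genes that matched. The 4 contractile promoters with a box are shown with the box in capitals, because they include ACTG2, among the deepest decreases of the list, and one gene that was higher. ACTG2 (chr2:73892758-73893007, plus strand) holds boxes 110 and 73 bases before the start. CNN2 (chr19:1026358-1026607, plus) holds 1 at 89 bases, TPM4 (chr19:16067288-16067537, plus) 1 at 173 and MYLK (chr3:123620549-123620798, minus) 1 at 94.
ACTG2: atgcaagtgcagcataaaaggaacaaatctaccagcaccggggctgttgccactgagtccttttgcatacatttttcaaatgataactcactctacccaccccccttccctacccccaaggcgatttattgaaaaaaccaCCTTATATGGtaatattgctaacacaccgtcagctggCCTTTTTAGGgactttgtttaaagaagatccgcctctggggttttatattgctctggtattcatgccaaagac
CNN2: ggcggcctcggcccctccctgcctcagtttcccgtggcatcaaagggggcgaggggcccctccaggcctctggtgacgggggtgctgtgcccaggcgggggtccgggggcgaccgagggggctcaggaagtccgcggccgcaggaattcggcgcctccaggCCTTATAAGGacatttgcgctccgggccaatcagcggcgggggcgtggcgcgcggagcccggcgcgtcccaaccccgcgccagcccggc
TPM4: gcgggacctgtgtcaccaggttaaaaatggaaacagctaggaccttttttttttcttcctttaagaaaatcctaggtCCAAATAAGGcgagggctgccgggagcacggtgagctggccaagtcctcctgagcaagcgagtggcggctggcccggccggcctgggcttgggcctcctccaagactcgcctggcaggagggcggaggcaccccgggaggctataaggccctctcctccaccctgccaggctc
MYLK: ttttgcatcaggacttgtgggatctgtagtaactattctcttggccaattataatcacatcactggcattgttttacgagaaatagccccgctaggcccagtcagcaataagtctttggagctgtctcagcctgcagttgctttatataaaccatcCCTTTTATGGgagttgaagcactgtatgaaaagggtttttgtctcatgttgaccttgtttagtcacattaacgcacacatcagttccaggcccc
The smaller change was -3.20 for ACTG2, 0.83 for CNN2, -0.43 for TPM4, a tropomyosin, and -0.16 for MYLK, the myosin light chain kinase. The presence of these letters therefore went with both directions, and no factor's binding was measured.

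Genes that link stress fibres to focal adhesions were also lower more often than all genes. Of 38 measured, 18 were lower (47.4%) and 4 higher, the median being -0.26. LPP, a LIM protein of focal adhesions, scored 5856 and 6486 with shLuc and 3070, 2859, 2711 and 2582 in the shMETTL3 libraries (-1.06). DIAPH3, a formin that elongates actin filaments, had -1.03. Every shMETTL3 library lay below shLuc for both genes, as the rule requires. Among 16 integrin subunits and related receptors 5 were higher and 4 lower. ITGB1, the common beta subunit of matrix receptors, scored 31952 in both shLuc libraries and 7693, 7910, 16692 and 11834 in the others (-1.18), where the tie between shLuc libraries is a step of the score and not a measured precision.

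Targets of YAP and TAZ, coactivators that respond to tension and cell spreading, were lower in 13 of 33 genes (39.4%) and higher in 3, with a median of -0.38. EDN1, the precursor of endothelin 1, scored 1028 and 1017 against 241, 268, 348 and 404 (-1.44). GADD45B, a stress-response gene, had -0.81 and CRIM1 -0.73, while CTGF and CYR61, the matricellular proteins most used as readouts of the pathway, had -0.41 and -0.28. The decrease in CTGF was -1.77 with shMETTL3-1 and -0.41 with shMETTL3-2. The hairpins differed in 10 of the 16 targets that met the rule, by limma at an adjusted p under 0.05. Of all 12413 tested genes 63.0% differed, and of tested members 53.7%. In all 10 the change was larger with shMETTL3-1.

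Matrix genes did not share 1 direction. Of 46 glycoproteins and proteoglycans 20 were lower (43.5%) and 4 higher, the median being -0.33. SDC4, a syndecan of the cell surface, scored 6990 and 7251 with shLuc and between 1480 and 1732 in the other 4 libraries (-2.05), and FBN2 and HSPG2, a fibrillin and the basement membrane proteoglycan perlecan, had -1.59 and -1.30. SPARC, which binds collagen, had 1.17, and EFEMP1, of the fibulin family, 1.07. Of 24 collagen chains 7 were lower and 6 higher. COL15A1, of basement membranes, had -1.90 and COL8A1, a short-chain collagen, -1.41, whereas COL27A1, a fibrillar collagen, had 1.30. COL1A2, a chain of collagen I, had -0.40, and COL1A1 did not meet the rule because it stood at the maximum in the shLuc and shMETTL3-1 libraries.

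Of 22 collagen-processing enzymes 11 were lower and 5 higher. TLL1, a tolloid protease that trims procollagen, scored 3313 and 3666 against 1010, 1054, 757 and 745 (-1.76), and PLOD2, a lysyl hydroxylase, had -0.88. LEPREL1, a prolyl hydroxylase, was higher at 1.02. Among 33 matrix proteases and inhibitors 10 were higher and 7 lower, close to the shares of all genes for the lower ones (21.2%) and above them for the higher ones (30.3%). MMP9, a gelatinase, scored 102 and 96 against 417, 466, 342 and 304 (1.69), and ADAM17, a sheddase, had 1.45. TIMP3, an inhibitor of these proteases, scored 13318 and 12124 against 3551, 3716, 4420 and 4612 (-1.49).

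**Figure D4:**
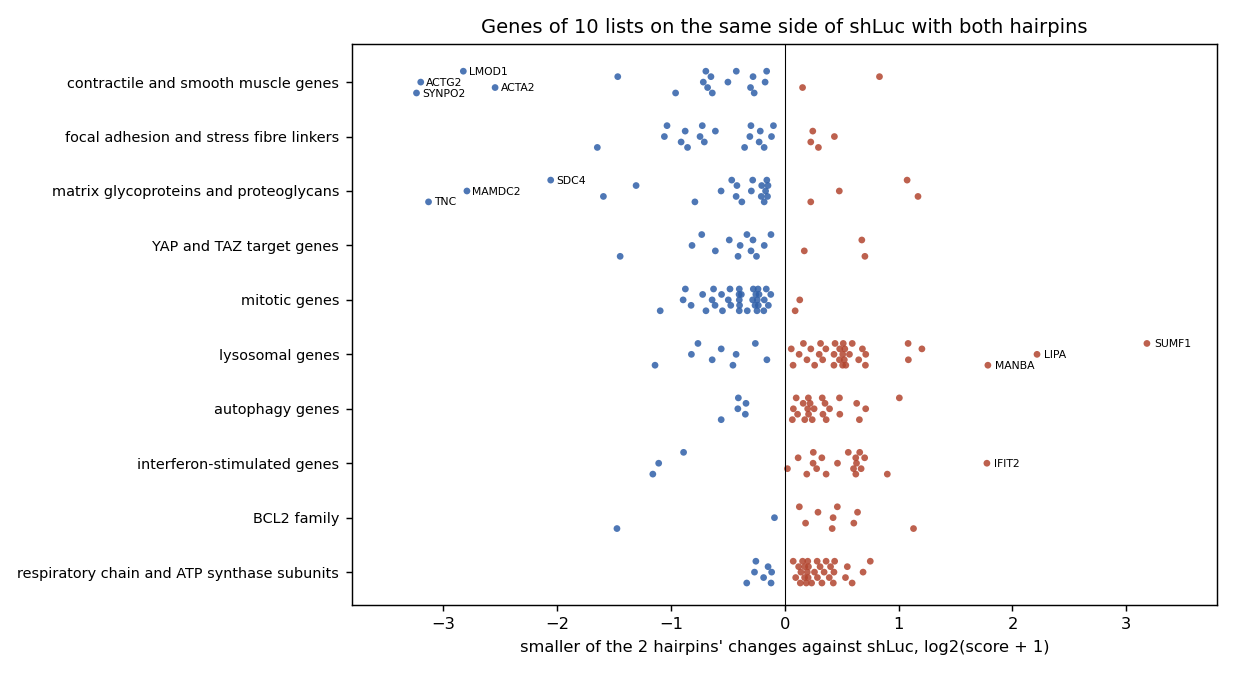
The smaller of the 2 hairpins' changes, on the log2(score + 1) scale, for each gene of 10 lists that met the rule (red higher, blue lower; vertical offsets within a list carry no meaning). Contractile genes spread to -3.23 and lysosomal genes to 3.18, while mitotic genes and respiratory chain subunits stay within about 1 unit of 0.

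Mitotic genes were lower in 35 of 69 (50.7%) and higher in 2, with a median of -0.48, and the gap exceeded the widest replicate difference in 22 of the 35. TOP2A, the topoisomerase that untangles chromosomes, scored 14078 and 9383 with shLuc, 4893 and 4782 with the first hairpin, and 6143 and 4724 with the second (-1.09). AURKB, a kinase of the chromosomal passenger complex, scored 1664 and 1640 against 872, 830, 908 and 872 (-0.89), and HMMR, a spindle-associated hyaluronan receptor, had -0.87. By the rule itself, all 4 shMETTL3 libraries lay below both shLuc libraries in each of these genes. Of 33 kinesins, the motors of the spindle and of transport along microtubules, 19 were lower (57.6%) and 6 higher. They included KIF14 (-0.92), a motor of cytokinesis, and also KIF5B (-0.81) and KIF5C (-0.68), which carry cargo along microtubules. Of 58 DNA replication genes 20 were higher (34.5%) and 8 lower. With a gap wider than the widest replicate difference these were 9 and 7, near the shares of all genes under that margin. DUT, which keeps uracil out of DNA, had 0.92 and RPA1, a single-strand binding protein, 0.82, while UHRF1, which maintains DNA methylation, had -0.85.

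Of 31 cyclins, inhibitors of cyclin-dependent kinases and related G1 genes 10 were lower and 3 higher. E2F7 and E2F8, closely related atypical repressors of the E2F family, lay on opposite sides: E2F7 scored 1142 and 1242 against 3984, 3922, 3330 and 3456 (1.51), and E2F8 scored 102 and 104 against 44, 37, 31 and 41 (-1.33). CDKN1A, the inhibitor p21, did not meet the rule, with changes of 0.80 and -0.13. The letters CCAAT, found on either strand (ATTGG on the other), are the site of NF-Y, a factor known at mitotic promoters. They occur in 35.4% of all matched promoters and in 23 of 31 lower mitotic genes that matched (74.2%), and also in 10 of 15 lower contractile genes. Other motifs were counted in the same windows. TTTGAA occurred in 18 of the 31 (58.1%), against 8.11% of all matched promoters. GGGCGG occurred in 23 of the 31 (74.2%), against 68.6%. TOP2A (chr17:40417897-40418146, minus strand, GRCh38.p14) is shown as the mitotic gene with the deepest decrease. It holds the letters ATTGG 244, 160, 93 and 53 bases before the start, in capitals. This promoter and the lysosomal ones below were chosen after the values were seen.
TOP2A: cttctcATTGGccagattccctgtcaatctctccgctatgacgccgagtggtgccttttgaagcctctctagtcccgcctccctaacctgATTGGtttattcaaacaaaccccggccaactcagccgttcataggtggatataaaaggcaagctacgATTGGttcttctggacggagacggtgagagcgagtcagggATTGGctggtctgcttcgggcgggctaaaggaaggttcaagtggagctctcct

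Lysosomal genes were higher in 34 of 59 (57.6%) and lower in 9, with a median of 0.37, and in 27 of the 34 the gap exceeded the widest replicate difference. LIPA, the acid lipase that frees cholesterol from lysosomal esters, scored 144 and 152 in the shLuc libraries, 1460 and 1382 with the first hairpin, and 644 and 741 with the second (2.22). MANBA, beta-mannosidase, scored 96 and 78 against 300, 301, 392 and 484 (1.78). CTNS, the cystine exporter, had 1.20, the peptidase TPP1 1.08 and the proton pump subunit ATP6V1C1 1.09. Hydrolases and membrane proteins stood on both sides, with GUSB, beta-glucuronidase (-0.76), ARSB, a sulfatase (-0.64), and LAMP2, a membrane protein (-0.26), among the lower genes. TFEB and MITF, transcription factors that are known to switch on lysosomal genes, were lower, with TFEB at 158 and 142 against 82, 87, 72 and 76 (-0.82) and MITF at -1.14. Of 42 autophagy genes 23 were higher (54.8%) and 5 lower, the median being 0.25. ULK1, the kinase that starts autophagosome formation, had 1.01, RB1CC1, its scaffold, 0.71, and MAP1LC3B, which is lipidated on autophagosome membranes, 0.66.

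The letters TCACGTGA form the core of the site bound by TFEB and its relatives. They read the same on both strands, contain the shorter E-box CACGTG, and occur in 1.84% of all matched promoters in 4 of 20 higher lysosomal genes that matched and in 1 of 7 lower ones, so they went with both directions. LAMP1, CTSA and ATP6V0D1, 3 of the 4, are printed with the letters in capitals. They lie 29 bases before the start in LAMP1 (chr13:113296989-113297238, plus strand), 26 in CTSA (chr20:45891085-45891334, plus) and 60 in ATP6V0D1 (chr16:67481158-67481407, minus), all in GRCh38.p14.
LAMP1: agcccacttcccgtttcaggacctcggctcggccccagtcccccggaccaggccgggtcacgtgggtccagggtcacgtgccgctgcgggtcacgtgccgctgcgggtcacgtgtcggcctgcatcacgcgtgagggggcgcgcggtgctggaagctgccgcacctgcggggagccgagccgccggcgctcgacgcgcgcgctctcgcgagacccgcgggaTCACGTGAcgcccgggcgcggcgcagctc
CTSA: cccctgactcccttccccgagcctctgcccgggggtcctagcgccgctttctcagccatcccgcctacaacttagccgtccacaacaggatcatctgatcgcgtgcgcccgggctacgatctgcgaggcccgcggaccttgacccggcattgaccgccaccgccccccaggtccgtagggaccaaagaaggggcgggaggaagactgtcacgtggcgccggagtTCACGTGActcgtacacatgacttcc
ATP6V0D1: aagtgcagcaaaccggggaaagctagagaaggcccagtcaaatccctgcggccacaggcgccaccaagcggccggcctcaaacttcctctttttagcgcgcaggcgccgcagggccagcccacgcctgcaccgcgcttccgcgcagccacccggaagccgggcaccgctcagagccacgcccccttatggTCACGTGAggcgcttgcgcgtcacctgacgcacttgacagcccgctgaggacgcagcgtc
LAMP1, a major lysosomal membrane protein, had a smaller change of 0.51, CTSA, a protective carboxypeptidase, 0.48, and ATP6V0D1, a pump subunit, 0.48.

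Interferon-stimulated genes were higher in 19 of 46 (41.3%) and lower in 3, with a median of 0.51. In 15 of the 46 the 2 hairpins lay on opposite sides of shLuc, against 21.7% of all genes. IFIT2, which binds foreign RNA, scored 34 and 36 against 131, 114, 286 and 213 (1.78), and OAS2, a sensor of double-stranded RNA, had 0.90. The lower genes were the guanylate-binding proteins GBP1 (-1.11) and GBP2 (-1.16) and IFIT5 (-0.89). The hairpins differed in 18 of the 22 by limma at an adjusted p under 0.05, where 63.0% of all tested genes and 53.7% of tested members differed. In 16 of the 18 shMETTL3-2 lay further from shLuc. Of 20 chemokines and cytokines 8 were higher and 4 lower. CXCL1, which attracts neutrophils, scored 56 and 58 against 226, 210, 394 and 364 (1.92), and TNFSF4, the ligand OX40L, scored 507 and 576 against 1792, 1820, 4893 and 4782 (1.74). IL12A, a subunit of interleukin 12, was lower (-1.33). Genes of MHC class I and peptide loading were split evenly, with 5 higher and 5 lower of 20, HLA-B at -0.68 and the peptide-trimming ERAP2 at 1.29.

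In the BCL2 family, whose members restrain or trigger mitochondrial cell death, 9 of 14 were higher and 2 lower, and none lay on opposite sides of shLuc with the 2 hairpins. MCL1, which protects cells, scored 1904 and 1694 against 3796, 4079, 6670 and 6158 (1.13), and PMAIP1, which opposes it, scored 370 and 296 against 598, 716, 562 and 474 (0.64). BCL2L2, also protective, scored 1440 and 1307 against 221, 206, 514 and 474 (-1.47); it shares sequence with a readthrough gene, so its value is uncertain. Higher genes were thus found among both protective and death-promoting members.

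Several metabolic lists held more higher than lower genes. Of 81 subunits of the respiratory chain and ATP synthase 31 were higher (38.3%) and 7 lower, all by small amounts, the largest being SDHC at 0.75. Of 37 proteasome subunits 13 were higher (35.1%) and 2 lower, and of 32 cholesterol genes 11 were higher (34.4%) and 2 lower. With a gap wider than the widest replicate difference 6 and 5 were higher, near the 14.7% of all genes under that margin. Among the 32 cholesterol genes 12 lay on opposite sides of shLuc with the 2 hairpins, against 21.7% of all genes. ABCA1, the cholesterol exporter, scored 210 and 256 against 809, 862, 510 and 548 (1.19), and STARD4, a sterol carrier, scored 5640 and 5966 against 1396, 1460, 3161 and 3096 (-0.89). Of 35 fatty acid and lipid droplet genes 9 were lower (25.7%, near the share of all genes) and 3 higher (8.57%), with a median change of 0.00. The lipases MGLL (-0.88) and PNPLA2 (-0.72) were lower, and PLIN2, which coats lipid droplets, was higher (0.69). HMOX1, heme oxygenase 1, had changes of 0.74 and 3.06, and FTL, the ferritin light chain, 1.15 and 1.68. EGLN1, an oxygen sensor that marks HIF for decay, scored 196 and 182 against 1225, 1518, 524 and 662 (1.64), while HK2, a hexokinase induced by hypoxia, had -1.14.

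Transcription factors of mesenchymal cells were higher in 20 of 46 (43.5%) and lower in 10. SNAI2, a repressor of epithelial genes, scored 112 in both shLuc libraries and 828, 934, 290 and 286 in the others (1.35), and ETS1 scored 2667 and 2556 against 7380, 7699, 6348 and 6826 (1.33). HOX genes, which carry positional identity, were higher in 9 of 27 (33.3%) and lower in 2. HOXA7 (1.03), HOXB5 (0.86) and HOXB6 (0.82) led them, and neighbours in a cluster share a locus and are not independent cases. Zinc finger genes named ZNF showed the reverse, with 84 of 330 lower (25.5%) and 39 higher (11.8%), so their share of higher genes was below that of all genes. With a gap wider than the widest replicate difference 38 were lower, near the 12.7% of all genes under that margin. Under the same margin 18 were higher, below the 14.7% of all genes. ZNF714 scored 252 and 320 against 114, 114, 64 and 60 (-1.31), and ZNF254 had -1.10.

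Among signalling genes, 10 of 25 feedback genes of MAP kinase signalling were higher and 4 lower. DUSP6, a phosphatase of ERK, scored 258 and 251 against 558, 570, 798 and 771 (1.14), and ETV5, a transcription factor induced by the pathway, had 1.13. KITLG, the ligand of KIT, had 1.79, NRG1, a ligand of ERBB receptors, 1.34, and ROR1, a Wnt receptor, -1.27. In the TGF-beta family 8 of 41 genes were higher and 11 lower. BMP4 scored 1942 and 1913 against 434, 404, 984 and 948, and GDF11 had -1.25. NRP1, a coreceptor of semaphorins and VEGF, was higher (1.57) and SEMA3B, a secreted semaphorin, lower (-1.70). Of 24 protocadherins 3 were higher and 0 lower, while 11 lay on opposite sides of shLuc with the 2 hairpins; transcripts of the gamma cluster share exons, so reads may be split between them.

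The rule fixed the side of shLuc but not which hairpin lay further out, so the difference between hairpins was tested. By limma with all 6 libraries in 1 fit, 7824 of 12413 tested genes (63.0%) differed between shMETTL3-2 and shMETTL3-1 at an adjusted p under 0.05. Of 5345 members tested, 2872 differed (53.7%), against 4851 of 6775 other genes (71.6%), among which are all genes with the hairpins on opposite sides. The remaining 22 members had a mean score under 50. Higher members that differed lay further out with shMETTL3-2 in 765 and with shMETTL3-1 in 692, and lower members in 709 and 706. These counts were close for the 2 hairpins. Single lists were less even among members that differed. shMETTL3-1 lay further out in 20 of 24 mitotic and 12 of 16 contractile genes, and shMETTL3-2 in 22 of 29 lysosomal genes. Whether the changes follow the level of METTL3 was not tested.

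Some members met the rule with very unequal changes. MMP1 scored 68 and 61 in the shLuc libraries, 392 and 286 with the first hairpin, and 8681 and 6822 with the second, a hairpin difference of 4.52 (SE 0.18, adjusted p = 4.6e-06). SLC7A11, the cystine importer, scored 668 and 667, then 812 and 725, then 9725 and 8417, so nearly its whole change was with the second hairpin. MSRB3, a methionine sulfoxide reductase, scored 3416 and 3668, then 180 and 158, then 1952 and 2259, so its decrease was mainly with the first. SLC4A4, a bicarbonate cotransporter, scored 90 and 70, then 973 and 947, then 144 and 124. LIFR, the receptor for leukemia inhibitory factor, scored 3513 and 3137, then 1566 and 1698, then 278 and 292. The stated smaller changes of these genes, 2.36, 0.20, -0.75, 0.74 and -1.03, describe only the weaker hairpin. At the other end, CAV2, DOCK4, SH3BGRL2, AP001429.1 and DDX6, an RNA helicase of mRNA decay with changes of 1.15 and 1.12, had hairpin differences between -0.07 and 0.09 that did not pass.

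Transcript features that the rule did not use were compared as a description, over the 11720 genes whose listed transcript was found in the GENCODE annotation lifted to GRCh37. Lower members had longer listed transcripts, with a median of 2848 bases against 2335 for higher members and 2454 for genes that met neither direction. Their 3′ UTRs had a median of 1246.5 bases, against 932 and 1011, over the 9681 genes whose listed transcript has an annotated coding region. Some listed transcripts, such as that of CAV2, have no defined coding region, so lengths need not be those of a gene's main mRNA. The share of lower genes was 17.6% in the second quintile of 3′ UTR length and 24.4% in the longest quintile, and the share of higher genes 25.9% and 21.5%. The letters GGACT, the commonest form of the m6A consensus, occurred at a median of 0.97 per kilobase in higher, 0.94 in lower and 0.92 in other genes, so the groups differed little in it. Shares also moved with the level: in the lowest quintile by mean score 17.4% were higher and 17.5% lower, and in the highest 26.3% and 22.7%.

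**Figure D5:**
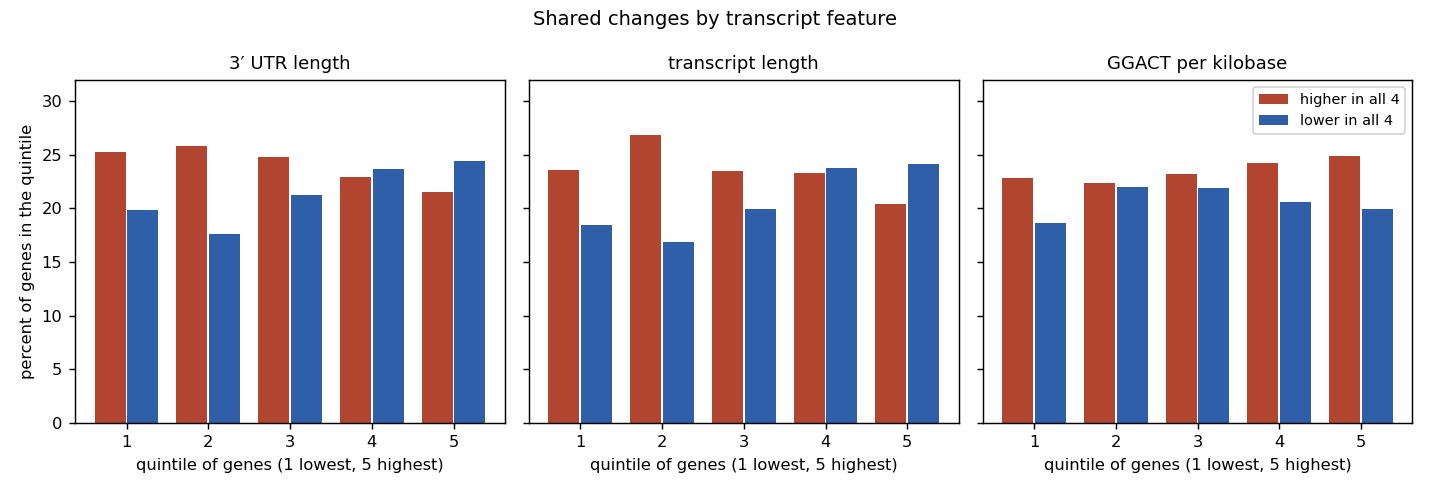
Percent of genes higher (red) and lower (blue) in all 4 shMETTL3 libraries, by quintiles of 3′ UTR length, transcript length and GGACT per kilobase of the listed transcript. The share of lower genes goes from 17.6% in the second quintile of 3′ UTR length to 24.4% in the longest, while shares change less along GGACT density.

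Across chromosomes the share of higher genes ran from 15.9% of 208 genes on chromosome 13 to 27.4% of 135 on chromosome 21, and that of lower genes from 17.0% on chromosome 21 to 24.0% on chromosomes 11 and X. Chromosome X had 16.2% higher and 24.0% lower among 396 genes.

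At the limit of 20, the genes just inside were BTBD11 (20, 22, 106, 86, 41 and 47 in shLuc, shMETTL3-1 and shMETTL3-2 order), CTD-2047H16.4 and DBP, the circadian factor, with lowest scores of 20 each. Just outside stood AC005943.5 with a lowest score of 18, and HOXC12 and SLITRK3 with 19 each. Of the stellate or mesenchymal markers 9 of 12 were listed, and DES, LRAT and HAND2 were not. Of the 8 with 6 scores of at least 20, 3 were lower and 1 higher, with a median change of -0.74. The summed score of the listed ones ranged from 144097 to 151109 with shLuc, from 154491 to 154856 with shMETTL3-1 and from 122618 to 127642 with shMETTL3-2, and most of it came from COL1A1, at the maximum in 4 libraries, VIM and SPARC, each at up to 44404. Summed scores of other cell types were far lower. The listed endothelial markers, 3 of 6, summed to 346 to 368, 211 to 216 and 739 to 741 in the same order of groups. Their directions differed: TEK scored 100 and 110 against 159, 122, 688 and 684, while CDH5 scored 180 and 164 against 26, 49, 4 and 10. VWF scored 88 and 72 against 31, 40, 49 and 45. The cholangiocyte markers, 2 of 5, summed to 434 to 442, 812 to 980 and 384 to 484, and the hepatocyte markers, 2 of 7, to 236 to 342, 292 to 296 and 218 to 237. The summed score of the listed macrophage markers, 3 of 6, was 841 to 867 with shLuc and 1167 to 1514 in the other groups. This followed CD68, a lysosomal protein also used as a macrophage marker, which scored 392 and 360 against 1150, 1005, 1053 and 1083. The other listed macrophage markers were not higher throughout: CD14 scored 158 and 183 against 105, 162, 138 and 154, and PTPRC 317 and 298 against 259, 0, 255 and 214. CD163, MARCO and CSF1R were not listed, and the part of other cells in the lysosomal counts was not tested.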

How the data were processed

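RNA-seq of LX2 cells was analysed in 6 libraries, 2 in each of 3 groups taken from the labels. The authors deposited 1 table of gene values, treated here as a score per gene: columns share nearly the same distribution, so these are not raw counts, depth is unknown and no count model was used. The genome build was hg19, per the labels' protocols, and the submitters' processing notes name DESeq2 but not what it was used for or its version. For the aligner, counting tool and annotation nothing is given in the sources used here.

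Changes are differences of group means of log2(score + 1), with a pseudocount of 1. The difference between hairpins was fitted with limma 3.58.1 in R 4.3.3 to all 6 libraries, using group means, a mean-variance trend, robust moderation and 3 residual degrees of freedom. It covered the 12413 genes whose mean score reached 50, with two-sided p-values adjusted by the Benjamini-Hochberg method, and was tested on simulated data. Since the values keep no counts, only this spread between libraries measures precision. Tables used Python 3.11.15 with pandas 2.3.3.

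The members and lists were chosen with earlier results of these data known. Named genes are METTL3, the 15 largest changes in each direction, up to 3 per list, the 5 largest hairpin differences in each direction and 3 genes on each side of the limit of 20, with others marked as chosen later. Not every gene this rule names is described, and 1 result is not reported here. Promoters are RefSeq windows of 250 bases, in which more motifs were counted than are described. Of 65 lists, the cytosolic ribosomal list held 1 listed gene and the mitochondrial ribosomal and mitochondrially encoded lists 0. Other settings and left-out libraries are given in the closing section.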

Additional observations from a re-analysis of the deposited data

Results flagged for a closer look

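The 10 members below were singled out because their effect differed between the hairpins, by limma over all genes (shMETTL3-2 minus shMETTL3-1 on the log2(score + 1) scale, 2 libraries per group). The 5 largest of each sign were taken by rank. Higher with shMETTL3-2 were MAMDC2 by 4.76 (adjusted p = 1.2e-06), MMP1 by 4.52, MSRB3 by 3.63, SLC7A11 by 3.56 and CLDN11 by 3.27. CLDN11, a claudin, scored 5031 and 5510 with shLuc, 7510 in both shMETTL3-1 libraries and the maximum of 72566 in both shMETTL3-2 libraries, so its difference is truncated. Lower with shMETTL3-2 were SLC4A4 (-2.84), TMEM123 (-2.68), TPPP3 (-2.66), LIFR (-2.51) and TBCA (-2.51). TBCA, a tubulin-folding cofactor, scored 1049 and 1230, then 931 and 954, then 158 and 172, and TMEM123 scored 6053 and 6143, then 4956 and 5270, then 854 and 742. TPPP3, a tubulin-binding protein, scored 277 and 232, then 131 and 138, then 20 and 21, at the limit of 20. In each of the 10 genes both libraries of one hairpin lay beyond both of the other.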

How the results depend on the processing

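The counts of 2853 higher and 2514 lower genes depended most on the margin. With a gap wider than the widest replicate difference they were 1798 and 1547. With a lowest score of 10, 50 or 100 they were 2869 and 2550, 2692 and 2354, and 2453 and 2122. Leaving out 1 library at a time, which loosens the rule, gave 3033 to 3457 higher and 2704 to 3173 lower genes, and medians of the smaller change of 0.34 to 0.36 and -0.36 to -0.34. Members with a hairpin difference, 2872, numbered 2208 to 2807 with 1 library left out and between 2747 and 2874 with the other scalings, filters, pseudocount and moderation tried. The main fit did not pair libraries by replicate number. Replicate differences correlated across genes at 0.24 between shLuc and shMETTL3-2, and at 0.03 between each of these and shMETTL3-1. A fit with a replicate block gave 3040 members. Among named genes no change against shLuc and no hairpin difference reversed; 19 of 456 alternative hairpin differences lost their call and 3 gained one. Of the named changes against shLuc 17 moved by more than the replicate SD, nearly all with a pseudocount of 10. Ties at high scores and the maximum limit precision, and without depth no counting error can be given.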

Other observations

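Genes under the limit of 20 held patterns of the same kind. Below it 53 genes had the order of the rule upward and 85 downward. The table lists 9 genes at 0 in both shLuc libraries and at 100 or more in all 4 shMETTL3 libraries: HGF, hepatocyte growth factor (206, 268, 322 and 286), TNFSF13B, the B-cell survival factor BAFF (218, 304, 324 and 316), CGA, the common alpha subunit of glycoprotein hormones (294, 319, 272 and 255), ADAM29, CSMD3, DHRS4-AS1, SNORA59B, AC007319.1 and AC009495.2. They are listed at 0 in a table without counts, and no fold is given.

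Some scores followed the row of the gene in the table. In each library a curve was drawn through the scores of the 93 listed miRNA transcripts, which therefore lie on it by construction. It rises with the row. In 155 genes, these 93 included, at least 5 of the 6 scores lay within 1% or 1 unit of the curve. At row 11004 the curve stood at 56, 64, 59, 58, 54 and 58 in the 6 libraries, and at row 12633 at 142, 162, 152, 148, 138 and 148. IFNG (70, 80, 76, 74, 68 and 74), FGF10 and CALCR lay on it. Of the members, 1 lower gene, ZNF711, had 5 or 6 scores on the curve, and 9 higher and 10 lower members had at least 1, TLR4 among them. Without genes on the curve the rule gave 2853 higher and 2513 lower genes; this alternative was added after seeing the data.

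The names of 19 listed genes were stored as dates, 6 of them members, and these are not named here. Of the members, 4 higher and 4 lower genes stood at the maximum of 72566 in at least 1 library, with TNC, CLDN11, ACTG1 and FLNA among them.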
